A study of Mus musculus with 16 samples.

Results

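The genes examined were 9 genes of MHC class II antigen presentation and T cell costimulation, *Cd74*, *H2-Aa*, *H2-Ab1*, *H2-Eb1*, *H2-DMa*, *H2-DMb1*, *Ciita*, *Cd86* and *Cd80*. They were chosen by symbol, and all 9 were among the 18167 genes of the expression table. Class II molecules are pairs of an alpha and a beta chain that carry peptides from endocytosed proteins to the surface of antigen-presenting cells, where CD4 T cells read them. The invariant chain (*Cd74*) guards the peptide groove until the complex reaches the endosome, proteases cut it down there, and the H2-DM heterodimer exchanges its last fragment for a peptide. A T cell that meets its peptide also needs a second signal, which CD80 and CD86 give by binding CD28. In the healthy central nervous system class II is scarce, and microglia, border-associated macrophages and dendritic cells are the cells known to carry it when the tissue is inflamed.

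RNA was sequenced from the spinal cords of 16 mice labelled male, all on a C57BL/6N background and all carrying a human *PFN1* (profilin 1) transgene in a vector with the mouse prion promoter. The mutant mice express the G118V form and develop motor neuron disease, and each genotype is a single transgenic line. Their wild-type counterparts carry human *PFN1* without this change, so no group is free of the transgene. Mutant young mice (MY, n = 3) and wild-type young mice (WY, n = 3) were 50 days old, before symptoms. Mutant old mice (MO, n = 5) were at end stage, when the animal can no longer right itself, at 198, 190, 245, 224 and 175 days for MO1 to MO5. Wild-type old mice (WO, n = 5) were 190 days old (WO1 to WO3) or 294 days old (WO4 and WO5). The young mice and 3 mice of each old group belonged to batch 1, and MO4, MO5, WO4 and WO5 to batch 2. Values are log2(1 + FPKM), corrected for batch by the authors, where FPKM is a fragment count scaled to the length of the transcript and to the mapped fragments of the library. How many fragments lie behind a value is not in the table, and precision is given by the variation among the mice of a group. A gene was called differentially expressed if its false discovery rate (FDR, limma with Benjamini-Hochberg adjustment over all genes) did not exceed 0.05 and its change was 1.5-fold or more, a log2 fold change of 0.58 on this scale.

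Markers of the tissue were present in all groups. *Snap25* of neurons had a mean of at least 10.22 in each group, *Chat* of motor neurons at least 3.28 and *Gfap* of astrocytes at least 9.50, and *Gfap* was called higher in MO in both comparisons (1.26 and 1.60) and *Chat* lower in WO vs. MO (-0.67). The genes *Hoxc8* and *Hoxa7* of the trunk axis had means of 4.54 and 3.86 in MO. A pair of libraries stood apart. In MO5 *Xist*, which silences an X chromosome in females, was at 3.21, whereas no other mouse exceeded 0.37, and the Y-linked *Ddx3y* was at 1.95 against at least 4.06 elsewhere, which goes against the label male. In WO4 the myelin gene *Mbp* was at 5.36, while the other WO mice had 12.61, 12.49, 12.42 and 14.22. The 3 other mice of batch 2, MO4, MO5 and WO5, were at 14.11, 14.14 and 14.22, above all mice of batch 1. The batch correction adjusts mean and scale, which keeps the order of mice of the same batch and group, so WO4 was below WO5 before it. How far below was not tested, as only corrected values were used. WO4 was also the lowest WO mouse for 6 of the 9 genes. Differences of the 9 genes and of the called genes of related lists are therefore also given without MO5 and WO4, which in MY vs. MO means without MO5. Marker genes were not tested in this way.

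The invariant chain gene *Cd74* (chromosome 18, 60803848 to 60812652, GRCm38) had the largest difference of the 9. It was at 3.24, 3.35, 4.21, 3.61 and 3.04 in MO1 to MO5. In WO1 to WO5 it was at 1.65, 1.67, 1.57, 0.29 and 2.27, in MY at 1.40, 1.57 and 1.24 and in WY at 1.45, 1.24 and 1.08. All 5 MO mice were thus above all 11 other mice, with MO3 highest, and the WO range was wide because WO4 lay below and WO5 above the rest. The mean and SD were 3.49 and 0.45 for MO, 1.49 and 0.73 for WO, 1.40 and 0.17 for MY, and 1.26 and 0.19 for WY, and the last 3 groups overlapped. Turned back into FPKM, this was a mean of 10.7 in MO and 2.07 in WO. *Cd74* was up-regulated by 2.09 in MY vs. MO (SE 0.24, FDR = 0.000691) and by 2.00 in WO vs. MO (SE 0.34, FDR = 0.00143). Both comparisons use the same MO mice. The difference from WO to MO was 1.97 in batch 1 and 2.05 in batch 2, where the value rests on WO4 and is 1.06 with WO5 as the only WO mouse. Without MO5 and WO4 the difference over both batches was 1.81 (FDR = 0.00126), with 2.20 (FDR = 0.00113) in MY vs. MO.

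Of the classical class II chains, the beta chain gene *H2-Ab1* (chromosome 17, 34257689 to 34269419) was at 1.25, 1.52, 2.14, 1.94 and 1.38 in MO1 to MO5. The other groups held 0.89, 0.84, 0.67, 0.17 and 0.79 in WO1 to WO5, 0.67, 0.52 and 0.64 in MY, and 0.34, 0.61 and 0.58 in WY. No other mouse reached the lowest MO mouse, MO1. The log2 fold change was 1.04 in MY vs. MO (SE 0.20, FDR = 0.00626) and 0.97 in WO vs. MO (SE 0.19, FDR = 0.00334). Within batch 1 and batch 2 the WO to MO differences were 0.84 and 1.18, the latter 0.87 without WO4. Without MO5 and WO4 the differences were 1.10 in MY vs. MO (FDR = 0.00826) and 0.91 in WO vs. MO (FDR = 0.00795). These levels lie near an FPKM of 1, where adding 1 before the logarithm compresses a change. On log2(FPKM + 0.1) the same differences were 1.82 in MY vs. MO and 1.77 in WO vs. MO.

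Its alpha chain partner *H2-Aa* (chromosome 17, 34282744 to 34287823, minus strand) was at 1.12, 1.83, 2.52, 2.36 and 1.38 in MO1 to MO5. It was at 1.26, 1.01, 0.84, 0.45 and 1.29 in WO1 to WO5, at 0.82, 1.12 and 0.80 in MY and at 0.68, 1.02 and 0.59 in WY. MO1 lay below WO1 and WO5, so the groups overlapped, while the 4 other MO mice were above all the rest. In WO vs. MO the difference was 0.87 (SE 0.27, FDR = 0.0365), which passed both thresholds. In MY vs. MO it was 0.93 (SE 0.31), with an FDR of 0.0612, and was not called, though the confidence interval, 0.21 to 1.64, covers a change of the same size. The call in WO vs. MO was lost without WO4 (0.74, FDR = 0.0840), without MO5 and WO4 (0.86, FDR = 0.0636) and with the mice of batch 1 alone (0.79, FDR = 0.171). In MY vs. MO without MO5 the difference was 1.04 (FDR = 0.0517).

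The beta chain gene *H2-Eb1* (chromosome 17, 34305867 to 34316674) had the smallest difference of these chains. Its values were 0.94, 1.02, 1.54, 1.60 and 1.00 in MO1 to MO5 and 0.93, 0.87, 0.81, 0.55 and 1.13 in WO1 to WO5. Those of MY were 0.77, 0.75 and 0.79, and those of WY 0.98, 0.70 and 0.82. Only MO3 and MO4 were above all other mice. The difference of 0.36 in WO vs. MO (SE 0.15, 95% confidence interval 0.03 to 0.70, FDR = 0.104) and of 0.45 in MY vs. MO (SE 0.16, FDR = 0.0812) passed neither threshold, and without MO5 and WO4 these were 0.34 (FDR = 0.174) and 0.50 (FDR = 0.0731). On log2(FPKM + 0.1) they were 0.65 (FDR = 0.108) and 0.80 (FDR = 0.0691), larger but not called. The alpha chain that pairs with it, encoded by *H2-Ea-ps*, is a gene that C57BL/6 mice are known not to express, and it is not among the genes of the table.

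Both genes of the H2-DM heterodimer, which edits the peptides of class II molecules, were up-regulated in both comparisons with MO. *H2-DMa* (chromosome 17, 34119541 to 34139101) was the most abundant of the 9 genes outside MO. It was at 3.02, 3.27, 3.49, 3.23 and 3.28 in MO1 to MO5, at 2.63, 2.41, 2.48, 2.27 and 2.37 in WO1 to WO5, at 2.36, 2.45 and 2.32 in MY and at 2.56, 2.33 and 2.55 in WY. The lowest MO mouse was above the highest mouse of the other groups, which overlapped one another, and the SD within MO was 0.17. *H2-DMa* was up-regulated by 0.88 in MY vs. MO (SE 0.09, FDR = 0.000523) and by 0.83 in WO vs. MO (SE 0.09, FDR = 9.12e-05), and without MO5 and WO4 by 0.88 (FDR = 0.00171) and 0.78 (FDR = 0.00135). It shares its locus with *Brd2* on the other strand, whose mean was 5.40 in MO and 5.31 in WO. Whether the authors' counting used the strand is not stated, so reads of the overlap cannot be told apart.

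*H2-DMb1* (chromosome 17, 34153072 to 34160230), the beta chain of the same heterodimer, was at 1.86, 2.25, 2.58, 2.24 and 1.97 in MO1 to MO5. It was at 1.27, 1.48, 1.35, 1.01 and 0.94 in WO1 to WO5, at 1.03, 0.89 and 0.80 in MY and at 1.06, 1.00 and 1.07 in WY, all below the lowest MO mouse. It was up-regulated by 1.27 in MY vs. MO (SE 0.15, FDR = 0.000792) and by 0.97 in WO vs. MO (SE 0.14, FDR = 0.000669), and without MO5 and WO4 by 1.33 (FDR = 0.00169) and 0.97 (FDR = 0.00397). A near copy, *H2-DMb2*, lies beside it (chromosome 17, 34143307 to 34151555), and 22.7% of all 50-base stretches in *H2-DMb1* transcripts also occur in those of *H2-DMb2*, so part of the reads could have been assigned to either gene. In *H2-Aa* 0.488% of the stretches also occur in another gene, *9530046B11Rik*, and *Cd74*, *H2-Ab1*, *H2-Eb1* and *H2-DMa* had no such stretch in common with any other gene of GENCODE M21.

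*Ciita*, the transactivator that switches on class II genes, was low in every mouse and was not called in any comparison. It was at 0.15, 0.09, 0.20, 0.17 and 0.14 in MO1 to MO5 and at 0.25, 0.22, 0.23, 0.25 and 0.14 in WO1 to WO5. In MY it was at 0.13, 0.19 and 0.09 and in WY at 0.10, 0.14 and 0.15. Here WO and not MO had the highest group mean, with 0.22 ± 0.05 against 0.15 ± 0.04. The difference was -0.07 in WO vs. MO (95% confidence interval -0.15 to 0.01, FDR = 0.169) and 0.01 in MY vs. MO (-0.08 to 0.11, FDR = 0.848), and without MO5 and WO4 -0.06 (FDR = 0.373) and 0.02 (FDR = 0.847). Mean FPKM was 0.110 in MO and 0.165 in WO, and at such levels adding 1 before the logarithm compresses any change. Over the alternatives run for *Ciita* the difference ranged from -0.33 to -0.05 in WO vs. MO. In MY vs. MO it ranged from -0.01 to 0.08, and no alternative called it. *Ciita* lies on chromosome 16 (10480059 to 10528418), where *Dexi* overlaps it on the other strand.

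Of the costimulatory ligand genes, *Cd86* was called in both comparisons with MO and *Cd80* in neither, and the difference between them was not tested. *Cd86* (chromosome 16, 36603869 to 36666081, minus strand) was at 2.51, 2.49, 2.50, 1.93 and 2.16 in MO1 to MO5. Elsewhere it ranged from 0.74 (WO4) to 1.21 (WO2), with 0.97, 0.98 and 0.81 in WO1, WO3 and WO5, 1.01, 1.02 and 0.90 in MY and 1.02, 0.99 and 0.76 in WY. The MO mice of batch 1 were nearly equal and the MO mice of batch 2 lower, and all 5 were clear of the other groups. *Cd86* was up-regulated by 1.34 in MY vs. MO (SE 0.14, FDR = 0.000483) and by 1.38 in WO vs. MO (SE 0.13, FDR = 3.97e-05), with WO to MO differences of 1.45 in batch 1 and 1.27 in batch 2 (1.24 without WO4). Without MO5 and WO4 the differences were 1.38 in MY vs. MO (FDR = 0.00125) and 1.37 in WO vs. MO (FDR = 0.000571). Mean FPKM was 4.06 (SD 0.870) in MO and 0.931 (SD 0.248) in WO.

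*Cd80* (chromosome 16, 38455561 to 38496335), which binds the same T cell receptors as *Cd86*, was at 0.47, 0.53, 0.60, 0.50 and 0.19 in MO1 to MO5. The WO mice had 0.28, 0.33, 0.23, 0.30 and 0.26, the MY mice 0.13, 0.32 and 0.29 and the WY mice 0.15, 0.27 and 0.19. MO1 to MO4 were above all other mice, whereas MO5 lay below the 4 other MO mice and all WO mice. The difference was 0.21 in MY vs. MO (SE 0.09, FDR = 0.134) and 0.18 in WO vs. MO (SE 0.07, FDR = 0.0789). Without MO5 and WO4 the FDR was 0.0148 and 0.00506, with differences of 0.28 and 0.25, so that the change on this scale and not the FDR then kept *Cd80* from being called. Mean FPKM was 0.379 in MO, 0.215 in WO and 0.187 in MY, a range in which adding 1 compresses a change. On log2(FPKM + 0.1) the differences were 0.72 (FDR = 0.159) and 0.54 (FDR = 0.10).

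**Figure D1:**
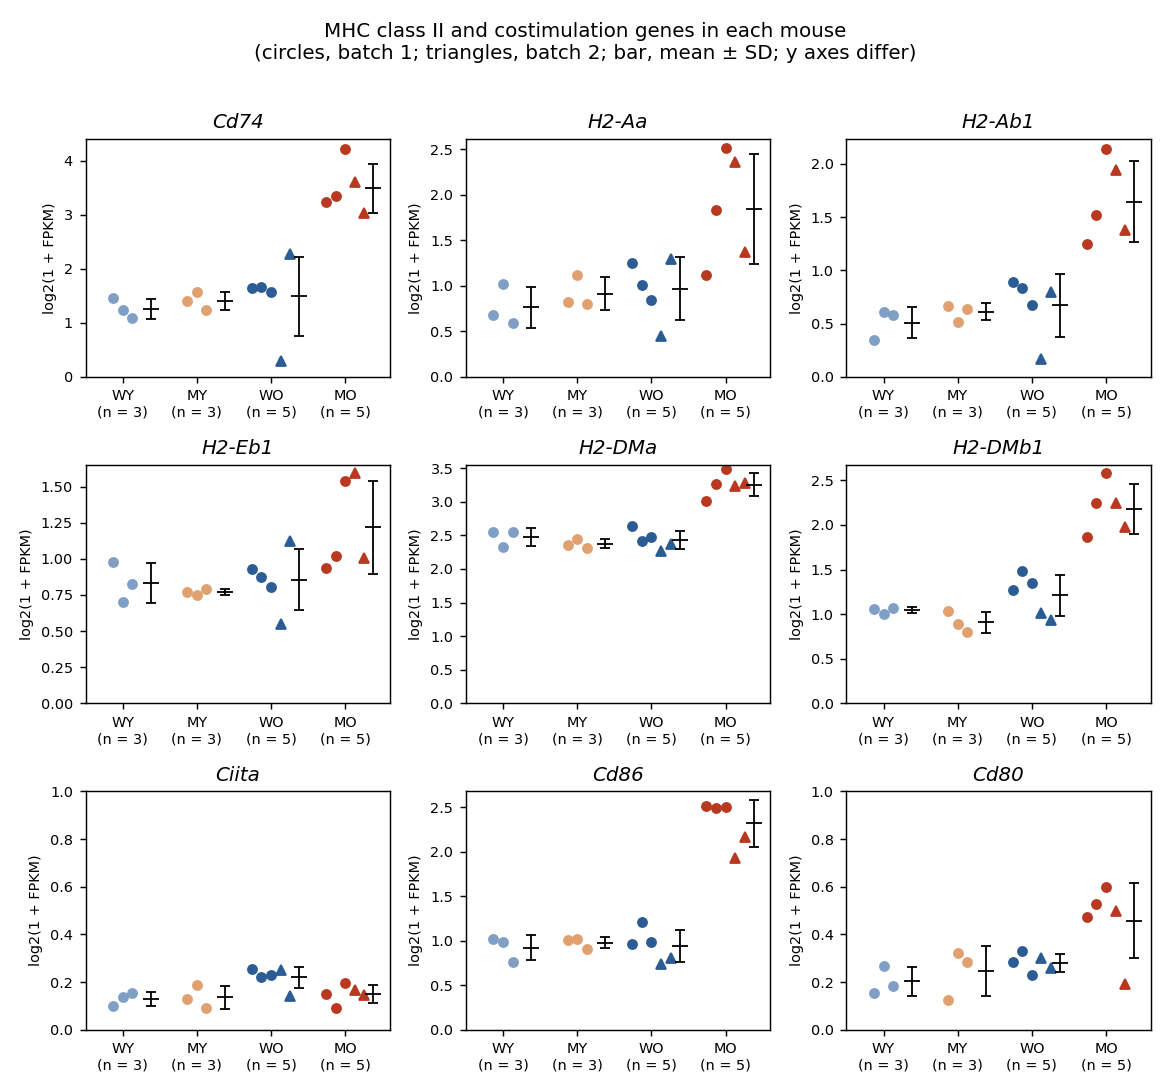
Values of the 9 genes in each mouse as log2(1 + FPKM) (vertical axis, scale differs between panels) by group (horizontal axis), with batch 1 as circles, batch 2 as triangles and the mean with its SD as a bar. The 5 MO mice lie above all 11 other mice for *Cd74*, *H2-Ab1*, *H2-DMa*, *H2-DMb1* and *Cd86*, overlap WO for *H2-Aa*, *H2-Eb1* and *Cd80*, and are not above the other groups for *Ciita*.

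Between presymptomatic and end-stage mutant mice (MY vs. MO), 5 of the 9 genes were up-regulated and none was down-regulated, where 4.11% of all genes were called higher in MO. The median log2 fold change of the 9 was 0.93, against 0.0047 over all genes. Between end-stage mutant and old wild-type mice (WO vs. MO), 6 of 9 were up-regulated, with 4.08% of all genes called higher, and the median was 0.87. The count of 6 was 5 without WO4, since *H2-Aa* was then lost. In 5 of the 9 genes the lowest MO value was higher than that of every mouse of the other groups, which held for 7.58% of the genes in the table. In bulk tissue, more cells that carry a transcript and more transcript per cell cannot be told apart, for these genes and for those below.

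Between young and old wild-type mice (WY vs. WO) none of the 9 genes was called by limma, nor had any an unadjusted p under 0.05, and 0.253% of all genes were called. The nearest was *Ciita* (0.09, unadjusted p = 0.0563, FDR = 0.392). An unadjusted p under 0.05 was found in this comparison for 2447 of all 18167 genes. The difference of *Cd74* was 0.23 (SE 0.37, 95% confidence interval -0.62 to 1.08), and without WO4 it was 0.53 (FDR = 0.252). Between the 2 lines before symptoms (WY vs. MY), which differ in the mutation and may differ in the site and dose of the transgene, limma again called none of the 9, none had an unadjusted p under 0.05, and the share over all genes was 0.00550%. The differences ran from -0.14 for *H2-DMb1* (95% confidence interval -0.30 to 0.03) to 0.15 for *H2-Aa* (-0.18 to 0.48). Here 1301 of all 18167 genes had an unadjusted p under 0.05.

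Whether the change with age differed between genotypes was tested as (MO - MY) - (WO - WY) on all 16 mice. It was larger in mutant mice for 5 of the 9 genes, where 4.65% of all genes were called in that direction. *Cd74* had the largest interaction (1.86, SE 0.48, FDR = 0.0149), followed by *Cd86* (1.32, SE 0.19, FDR = 0.000281), *H2-DMb1* (1.11, SE 0.21, FDR = 0.00202), *H2-DMa* (0.93, SE 0.14, FDR = 0.000344) and *H2-Ab1* (0.87, SE 0.27, FDR = 0.0372). Not called were *H2-Aa* (0.72, FDR = 0.235), *H2-Eb1* (0.43, FDR = 0.200), *Cd80* (0.13, FDR = 0.431) and *Ciita* (-0.08, FDR = 0.358). The interaction of *H2-Ab1* was lost in batch 1 alone (0.74, FDR = 0.0893), and those of *Cd74* and *H2-Ab1* on log2(FPKM + 0.1), where the differences were larger, 2.40 (FDR = 0.0623) and 1.5 (FDR = 0.101). Without MO5 and WO4 all 5 were called.

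Of all genes, 4.11% were called higher in MY vs. MO and 4.08% in WO vs. MO. An FDR under the threshold, in either direction and at any fold change, was far more common. It was found for 4646 of the 18167 genes in MY vs. MO and for 5075 in WO vs. MO. Of 4 other class II genes in the table, 1 was up-regulated in both comparisons with MO. This was *H2-Oa*, the alpha chain of the H2-O heterodimer that restrains H2-DM, with a log2 fold change of 0.94 in MY vs. MO (SE 0.13, FDR = 0.00174) and 1.07 in WO vs. MO (SE 0.11, FDR = 8.06e-05). It was at 1.25, 1.70, 1.82, 1.42 and 1.54 in MO1 to MO5, and no other mouse exceeded 0.81. Its beta chain gene *H2-Ob* (0.52 and 0.48) and *H2-DMb2* (0.18 and 0.21) had an FDR under the threshold, without the fold change on the log2(1 + FPKM) scale, which compresses changes at such levels. Mean FPKM of *H2-Ob* was 0.863 in MO, 0.339 in WO and 0.296 in MY, and that of *H2-DMb2* 0.362, 0.176 and 0.201. *H2-DMb2* and *H2-Eb2* had means under 0.5 in every group. The genes *H2-Oa*, *H2-DMa*, *H2-DMb2*, *H2-DMb1*, *H2-Ob*, *H2-Ab1*, *H2-Aa*, *H2-Eb1*, *H2-Eb2* and *H2-Ea-ps* follow each other in this order within chromosome 17, 34092340 to 34344645, whereas *Cd74*, *Ciita*, *Cd86* and *Cd80* lie elsewhere.

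Class II promoters are known to carry an X box, bound by the RFX complex, and a Y box, bound by NF-Y, and CIITA is recruited to the proteins on them. Promoter sequences from RefSeq (GRCm38.p6) matched 5 of the 9 genes, *H2-Aa*, *H2-Eb1*, *H2-DMa*, *H2-DMb1* and *Cd80*, and not *Cd74*, *H2-Ab1*, *Ciita* and *Cd86*. In the 250 bases before the start, 2 short motifs were searched on both strands, TGATTGG for the Y box and AACNGATG for the X box, letters that were chosen after the sequences had been seen. The first was in *H2-Aa*, *H2-Eb1* and *H2-DMb1* and in 7.23% of all 32851 promoters, the second in *H2-Eb1* and *H2-DMb1* and in 1.98%, and both together in 0.146%. *H2-DMa* (windows chr17:34122582-34122881 and chr17:34125268-34125567) and *Cd80* (chr16:38458683-38458982) held neither. These windows lie within the genes as placed by GENCODE, which start at 34119541 and 38455561. The sequence before those starts was not searched. In *H2-DMb1* and *H2-DMb2* 21 bases lay between the motifs, and in *H2-Eb1* and *H2-Eb2* 20 bases.

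Stretches of 60 bases around the Y box are shown for *H2-Aa* and *H2-Eb1*, which are neighbours, and for *H2-DMb2*, the copy next to *H2-DMb1*. They are read on the strand of the gene, lie before the RefSeq start and outside annotated exons, and have the motifs in capitals. The *H2-Aa* stretch is at chr17:34287860-34287919 (minus strand), between genes. That of *H2-Eb1* is at chr17:34305760-34305819 (plus strand), within the antisense gene *Gm20513*, and that of *H2-DMb2* at chr17:34145111-34145170 (plus strand), within an intron of a longer transcript of the gene.
*H2-Aa*: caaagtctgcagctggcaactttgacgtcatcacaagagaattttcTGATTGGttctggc
*H2-Eb1*: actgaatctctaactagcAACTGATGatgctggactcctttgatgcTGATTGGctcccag
*H2-DMb2*: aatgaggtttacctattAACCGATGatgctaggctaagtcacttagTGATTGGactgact
*H2-Eb1* and *H2-DMb2*, whose stretches hold both motifs, were not called, nor was *H2-Eb2*, which also has both (-0.05 and -0.08). *H2-DMb1*, with both motifs as well, was called in both comparisons with MO. *H2-Aa*, with the Y box letters alone, was called in WO vs. MO. The Y box letters alone were also found before *H2-Oa*, which was called in both, and *H2-Ob*, which was not. A match in these letters is a description and says nothing of a bound factor. The lack of a match does not show that a box is absent, since a box with other letters would be missed.

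For the lists that follow, the share of all genes called higher in MO is 4.11% in MY vs. MO and 4.08% in WO vs. MO, as above. Among 10 transcription factors of class II genes, 2 were up-regulated in both comparisons with MO and none was down-regulated. These were *Spi1*, the myeloid factor PU.1, by 1.44 in MY vs. MO (SE 0.14, FDR = 0.000379) and 1.68 in WO vs. MO (SE 0.12, FDR = 2.16e-05), and *Irf8*, its partner in microglia, by 1.65 (SE 0.15, FDR = 0.000314) and 1.87 (SE 0.14, FDR = 2.16e-05). *Irf8* was at 3.01, 3.52, 3.57, 3.12 and 3.08 in MO1 to MO5 and at most 1.70 in any other mouse. The RFX genes *Rfx5*, *Rfxap* and *Rfxank*, at means between 2.73 and 4.06 in MY and MO, differed by -0.04, -0.03 and -0.03 in MY vs. MO. *Nfya* of the Y box factor differed by 0.30 in WO vs. MO (FDR = 0.00246), below the fold change, and *Irf4* had means under 0.5 in every group. The list's median was 0.02 in MY vs. MO and 0.04 in WO vs. MO.

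Of 8 genes present that act in antigen processing or in the turnover of class II molecules, 4 were up-regulated in both comparisons and none was down-regulated. *Ctss*, cathepsin S, which makes the last cuts in the invariant chain, was at 8.58, 8.89, 8.97, 8.08 and 8.10 in MO1 to MO5 and at most 6.77 in any other mouse. Its log2 fold change was 2.30 in MY vs. MO (SE 0.22, FDR = 0.000331) and 2.14 in WO vs. MO (SE 0.22, FDR = 7.98e-05). *Ifi30*, the thiol reductase that unfolds antigens, rose by 2.07 (SE 0.17) and 1.95 (SE 0.16). The proteases *Ctsl* (1.06 and 1.24) and *Ctsb* (1.00 and 1.09) rose as well. Of the ubiquitin ligases that remove class II and CD86 from the surface, *March1* differed by 0.04 and 0.06 and was not called, and *March8* by -0.44 (FDR = 0.00280) and -0.21 (FDR = 0.0413), below the fold change. *Lgmn*, the asparagine endopeptidase, differed by 0.28 (FDR = 0.00215) and 0.39 (FDR = 0.000404), below the fold change. *Sppl2a*, which clears the *Cd74* remnant from the membrane, differed by 0.07 and 0.14 and was not called.

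Interferon-gamma is the classical inducer of *Ciita*. Its own gene, *Ifng*, is not among the genes of the table. Of 6 genes of the pathway that were examined, 1 was up-regulated in both comparisons, the receptor chain *Ifngr1*, by 0.82 in MY vs. MO (SE 0.10, FDR = 0.00108) and by 0.87 in WO vs. MO (SE 0.09, FDR = 7.14e-05). The target and transcription factor *Irf1* differed by 0.47 in both (FDR = 0.0150 and 0.000921), below the fold change. The kinase gene *Jak1* was lower in MO by 0.23 (FDR = 0.00484) and 0.20 (FDR = 0.00623) and was not called either. The median of the list was 0.16 in MY vs. MO and 0.14 in WO vs. MO.

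Of 10 other ligands with which antigen-presenting cells act on T cells, 4 were up-regulated in both comparisons. *Cd48*, a ligand of CD2 family receptors, had the largest change, 2.40 in MY vs. MO (SE 0.22, FDR = 0.000319) and 2.51 in WO vs. MO (SE 0.22, FDR = 2.80e-05). The adhesion molecule gene *Icam1* rose by 1.56 (SE 0.14) and 1.48 (SE 0.14), the ICOS ligand gene *Icosl* by 0.93 (SE 0.25, FDR = 0.0282) and 0.87 (SE 0.20, FDR = 0.00827), and *Tnfsf9*, the ligand of 4-1BB, by 0.64 in each. *Icosl* was at 3.75, 2.93, 2.99, 2.35 and 3.05 in MO1 to MO5, with MO4 close to the highest other mouse, WO1 (2.22). In MY vs. MO its call was lost without MO5 (0.93, FDR = 0.0533) and without MO3, MY1, MY2 or MY3. That of *Tnfsf9* was lost in MY vs. MO without MO2, MY1 or MY2 and in WO vs. MO without MO2, and in both comparisons with quantile normalization (0.52 and 0.54) and with treat. With treat *Icosl* was lost in both as well. *Cd40* differed by 0.22 and 0.13 and was not called. *Cd274*, which encodes PD-L1, differed by 0.41 (FDR = 0.00427) and 0.34 (FDR = 0.00228), below the fold change, with all 5 MO mice above the other groups. *Pdcd1lg2*, *Cd70* and *Vtcn1* had means under 0.5 in every group, and *Tnfsf4* and *Vsir* are not among the genes of the table.

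Most receptors for these ligands were near 0. *Cd28*, the receptor through which CD80 and CD86 costimulate, and *Ctla4*, through which they inhibit, had means of 0.11 and 0.09 in MO. *Cd28* had an FDR under the threshold in WO vs. MO (0.09, FDR = 0.0306), without the fold change on this compressed scale, with a mean FPKM of 0.0764 in MO and 0.00879 in WO, and WY3 (0.11) lay among the MO mice. *Icos*, *Tnfrsf9* and *Cd27* also had means under 0.5 in every group, and *Cd40lg* is not in the table. *Tnfrsf4*, which encodes OX40, was higher, with means of 0.67 in MO and 0.74 in WO, and was not called. Of the 7 genes present only *Pdcd1*, which encodes PD-1, was up-regulated, by 1.26 in MY vs. MO (SE 0.19, FDR = 0.00211) and by 1.43 in WO vs. MO (SE 0.17, FDR = 0.000147). It was at 1.01, 1.66, 2.03, 1.57 and 1.51 in MO1 to MO5 and at most 0.34 in any other mouse. WO4 and WO5 were below 0 in these batch-corrected values (-0.145 and -0.0253), and for log2(FPKM + 0.1) their FPKM was set to 0. Over the alternatives *Pdcd1* stayed called, with differences from 1.15 to 2.63 in MY vs. MO and from 1.30 to 3.36 in WO vs. MO. Markers of T cells are given below, and the cells that *Pdcd1* came from were not determined.

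Without MO5 and WO4 the called genes of these lists remained called in both comparisons, except *Icosl* in MY vs. MO. In MY vs. MO and WO vs. MO the differences were then 0.94 and 1.02 for *H2-Oa*, 1.47 and 1.71 for *Spi1*, 1.70 and 1.84 for *Irf8* and 2.41 and 2.13 for *Ctss*. Those of *Ctsl* were 1.10 and 1.25, of *Ctsb* 1.00 and 1.08, of *Ifi30* 2.11 and 1.95 and of *Ifngr1* 0.84 and 0.87. *Icosl* had 0.93 and 0.86, *Tnfsf9* 0.61 and 0.63, *Icam1* 1.57 and 1.43, *Cd48* 2.47 and 2.50 and *Pdcd1* 1.28 and 1.37.

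**Figure D2:**
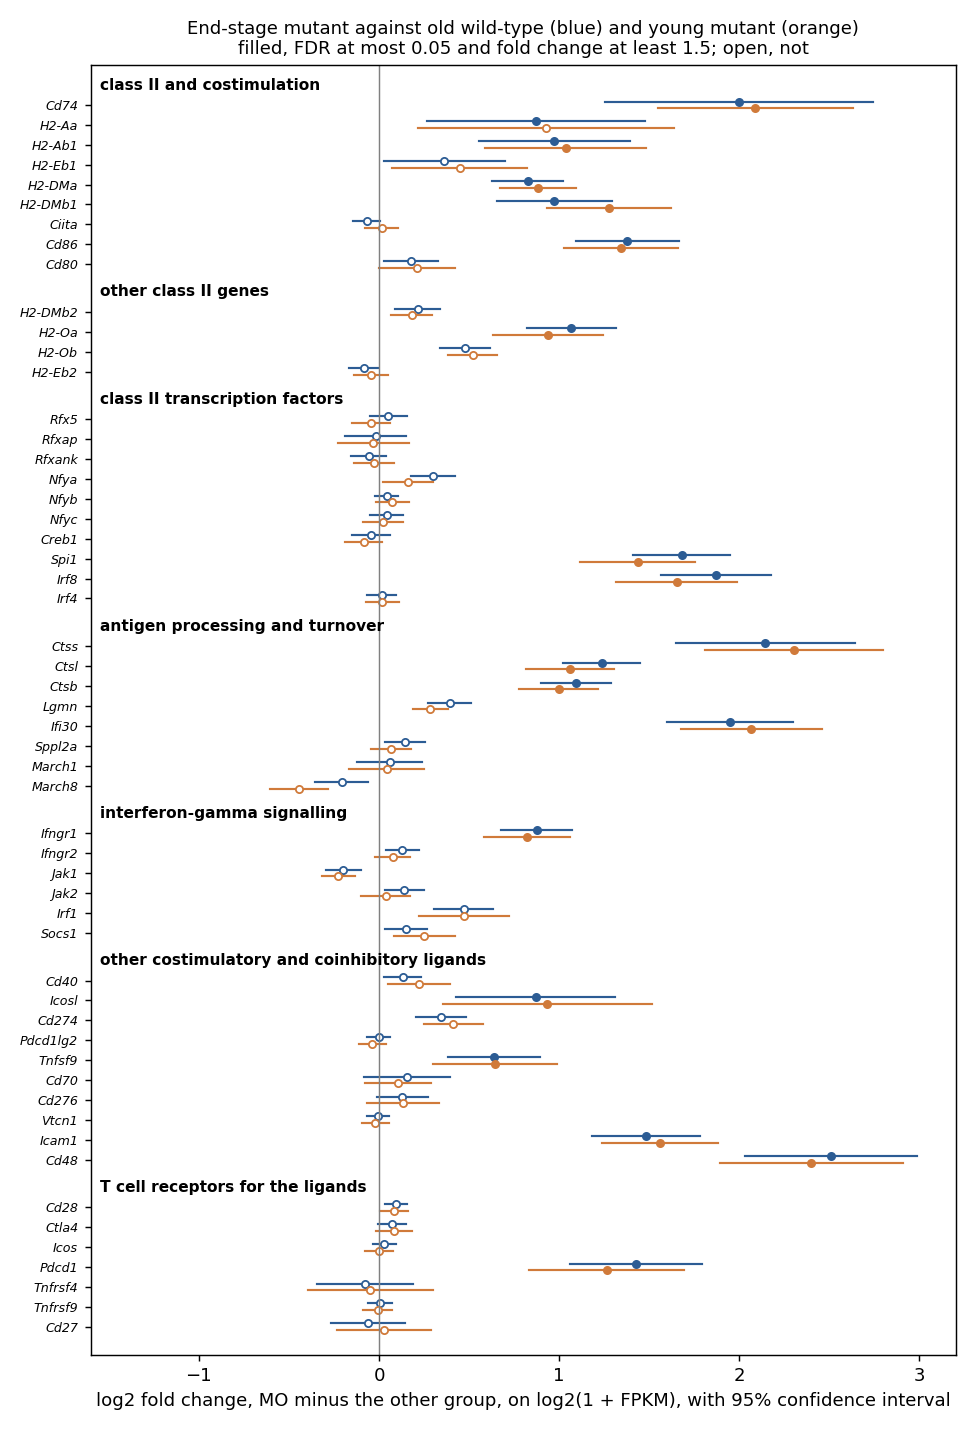
Log2 fold change of each gene from WO to MO (blue) and from MY to MO (orange) on the log2(1 + FPKM) scale (horizontal axis) with its 95% confidence interval, for the 9 genes and 6 lists of related genes (vertical axis), filled where called. Filled points lie to the right of 0 without exception, and those of *Cd74*, *Ctss*, *Ifi30* and *Cd48* are near or above 2.

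Markers of cells that can carry class II were examined beside these genes, as the sum of FPKM over each list. Of 8 microglia markers, 5 were up-regulated in MY vs. MO and 4 in WO vs. MO. Their sum was 157, 195, 201, 162 and 164 in MO1 to MO5, 92.1, 95.7, 98.1, 86.5 and 80.8 in WO1 to WO5, 92.4, 98.0 and 93.8 in MY and 89.3, 93.8 and 88.7 in WY, with *Csf1r* the most abundant. The sum over the 9 genes of antigen presentation was 26.8, 32.1, 48.1, 35.7 and 26.8 in MO1 to MO5 and at most 13.3 in any other mouse. MO3 was highest in both sums. Not all microglia markers rose: *P2ry12* differed by -0.02 and 0.10 and *Sall1* by -0.03 and -0.01 in MY vs. MO and WO vs. MO. *Csf1r* (1.17 and 1.28) and *Aif1* (1.88 and 1.75) were called in both. The part of the microglia markers' rise in that of the class II genes was not tested.

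Of 7 markers of border-associated macrophages, 1 was up-regulated in both comparisons, *Ms4a7* (1.73, SE 0.36, and 1.90, SE 0.28), the most abundant of them in MO though the lowest in WO. *Mrc1*, *Cd163* and *Lyve1*, which define these cells, had means under 0.5 in every group. *Mrc1* (0.19, FDR = 0.0142, and 0.22, FDR = 0.00343) and *Lyve1* (0.24, FDR = 0.0491, and 0.24, FDR = 0.0109) had an FDR under the threshold without the fold change on this scale, which compresses changes at such levels. Mean FPKM of *Mrc1* was 0.413 in MO, 0.235 in MY and 0.210 in WO, and that of *Lyve1* 0.341, 0.136 and 0.133. The sum was 5.75, 6.45, 10.3, 4.14 and 6.54 in MO1 to MO5, 2.05, 2.91, 2.44, 2.06 and 1.46 in WO1 to WO5, 1.65, 2.29 and 2.41 in MY and 2.32, 1.83 and 2.84 in WY. MO3 was again the highest mouse, MO4 was the lowest MO mouse, and all 5 were above the other groups. The part of these markers in the result was not tested.

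Of 7 dendritic cell markers, *Batf3* was up-regulated (0.69 and 0.72), while *Xcr1*, *Clec9a*, *Ccr7* and *Clec10a* had means under 0.5 in every group and *Cd209a* is not in the table. The sum, most of it *Flt3*, was 14.2, 11.1, 11.8, 12.4 and 12.3 in MO1 to MO5, 13.6, 12.4, 12.6, 11.6 and 13.1 in WO1 to WO5, 12.7, 12.1 and 12.2 in MY and 11.4, 10.9 and 12.1 in WY, so MO did not stand out. *Flt3* itself differed by -0.31 and -0.36, below the fold change. Of 5 B cell markers, *Cd22*, a sialic acid receptor that is also known from aged microglia, was up-regulated (1.44 and 1.56). *Ms4a1*, which defines B cells, is not in the table, and *Cd79a*, *Pax5* and *Blk* had means under 0.5 in every group. *Cd79b* was higher in MO by 0.28 (FDR = 0.0229) and 0.45 (FDR = 0.000373), below the fold change on this compressed scale, with all 5 MO mice above the other groups and a mean FPKM of 0.521 in MO, 0.257 in MY and 0.117 in WO. The B cell sum was 2.96, 2.68, 3.46, 2.04 and 2.72 in MO1 to MO5, with *Cd22* most abundant, 0.497, 0.532, 0.783, 0.159 and 0.382 in WO1 to WO5, 0.590, 0.659 and 0.557 in MY and 0.529, 0.298 and 0.388 in WY. The part of either list in the result was not tested.

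None of the 7 T cell, 5 monocyte and neutrophil or 4 red blood cell markers present was called in MY vs. MO or WO vs. MO. The T cell sum was 1.03, 1.10, 0.838, 0.958 and 1.29 in MO1 to MO5, 0.457, 0.608, 0.442, 0.367 and 0.501 in WO1 to WO5, 0.579, 0.629 and 0.695 in MY and 0.767, 0.694 and 0.523 in WY. MO was thus above the other groups at a very low level, with *Lck* the most abundant, and *Cd8b1* is not in the table. *Cd3e*, *Cd3d*, *Cd3g*, *Cd4*, *Cd8a* and *Cd2* had means under 0.5 in every group. In WO vs. MO, 3 of the T cell genes had an FDR under the threshold without the fold change, *Cd3g* (0.21), *Cd8a* (0.09) and *Lck* (0.26). Of all 18167 genes, 5075 had an FDR under the threshold in this comparison, in either direction. The part of the T cell markers in the result was not tested.

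The monocyte and neutrophil sum, with *S100a8* the most abundant, was 6.76, 7.87, 1.21, 4.28 and 1.10 in MO1 to MO5, 7.87, 32.3, 2.79, 6.40 and 5.29 in WO1 to WO5, 5.68, 2.98 and 2.71 in MY and 1.30, 1.94 and 1.66 in WY. WO2 was far above the rest and MO lay within the range of WO except for MO3 and MO5, which were lower. *Ccr2*, *Ly6c2* and *Plac8* had means under 0.5 in every group, and *Ly6g* is not in the table. The sum of red blood cell genes, nearly all *Hba-a1*, was 11.7, 64.4, 60.4, 60.5 and 43.3 in MO1 to MO5, 96.8, 62.8, 61.1, 95.1 and 79.3 in WO1 to WO5, 50.0, 68.5 and 51.8 in MY and 65.2, 62.3 and 71.3 in WY, lowest in MO1. *Hba-a2* and *Hbb-bs* were near 0 and *Hbb-bt* is not in the table. The part of blood in the result was not tested.

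Nearness of genes was measured as the root mean square difference over the 16 mice after each gene's mean had been removed. The nearest genes outside the 9 were found for *Cd74*, *H2-Ab1* and *Cd86*. For *Cd74* they were *Itgb2* (0.40), *Ch25h* (0.40) and *Cxcl16* (0.41), nearer than any other of the 9 genes, of which *Cd86* was the nearest (0.54). For *H2-Ab1* they were *Crlf2*, *Itgam* and *Klrb1b* (0.19, 0.20 and 0.20), about as near as its partner chain gene *H2-Aa* (0.19). For *Cd86* they were *Havcr2* (0.08), which encodes TIM-3, *Fyb* (0.09) and *Csf2rb* (0.10), nearer than any other of the 9 genes, of which *H2-DMb1* was the nearest (0.26). Values were not scaled, so a gene with a change of another size counts as far even if its pattern is alike. The nearest genes were picked from all genes outside the 9, so their being nearer follows in part from the size of that search.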

How the data were processed

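The deposited log2 values, log2(1 + FPKM), had been corrected for batch with ComBat by the authors and entered the fits as they were. There was 1 column for each of the 16 mice. The authors name Trimmomatic, alignment to mm10 with TopHat, and FPKM from Cufflinks. Versions, annotation and covariates of ComBat are not given in the sources used here. The libraries were stranded, and whether counting used the strand is not stated. Of the values 915 were below 0, in none of the 9 genes. Library depth was not used, and counting errors could not be given.

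Fits used limma 3.58.1 (lmFit and eBayes, two-sided) in R 4.3.3 on all 18167 genes. Each comparison used its own 2 groups, second minus first, and the interaction all 16 mice. The procedure was tested on simulated data. Descriptions used Python 3.11.15 with pandas 2.3.3 and NumPy 2.4.6. Positions came from GENCODE M21 (GRCm38) and promoters from RefSeq. FPKM was recovered as 2 to the power of the value, minus 1.

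Genes named were the 9, genes of 6 related lists that were called or were near 0 (group means under 0.5) or absent, the nearest 3 genes, marker genes and *Xist* and *Ddx3y*. Others named for contrast, and the emphasis on MO5 and WO4, were chosen after their values were seen. The 9 genes and the lists were chosen with earlier results of these data known. The interferon-gamma, microglia and B cell lists hold 1 gene fewer than planned, a change made after the results were seen. Alternatives were batch 1 only, batch as a term, a mean of at least 1, log2(FPKM + 0.1), quantile normalization, 1 fit of all groups, an intensity trend, limma's treat with 1.2-fold as its null, blocks by replicate number, and fits that omit a mouse in turn. Leaving out MO5 and WO4 together was added after seeing the data.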

Additional observations from a re-analysis of the deposited data

Results flagged for a closer look

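The change with age differed between mutant and wild-type mice, by limma's test of (MO - MY) - (WO - WY) on all 16 mice with Benjamini-Hochberg adjustment, for 17 of the 22 genes examined (the 9 genes and the called genes of the related lists). Of all genes 4.65% were called in this direction, but 13 of the 22 were chosen for their calls in comparisons that use the same MO mice, so the count of 17 follows in part from that choice. Among the 9, the interactions were 1.86 for *Cd74*, 0.87 for *H2-Ab1*, 0.93 for *H2-DMa*, 1.11 for *H2-DMb1* and 1.32 for *Cd86*. *H2-Oa* had an interaction of 1.08 (SE 0.19, FDR = 0.00143). The factors *Spi1* and *Irf8* had 1.54 and 1.85. For the endosomal genes it was 2.14 (*Ctss*), 1.31 (*Ctsl*), 1.05 (*Ctsb*) and 2.16 (*Ifi30*), and for the receptor gene *Ifngr1* 0.86. The ligand genes *Tnfsf9*, *Icam1* and *Cd48* had 0.71, 1.65 and 2.38, and *Pdcd1* had 1.37. *Icosl*, although called in both comparisons with MO, was not among them.

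No mouse lay far enough from the rest of its group to pass Dixon's test at its critical value of 0.710 in any of 44 groups of 5 mice (WO and MO of the 22 genes), WO4 in *Cd74* included. With 5 mice this test finds only extreme values. The shortfall of WO4 from the median of the other WO mice was the 13th largest of all 18167 genes in *Cd74* (-1.37), the 61st in *H2-Aa* (-0.69) and the 70th in *H2-Ab1* (-0.65), so WO4 does stand low in these genes. Groups of 3 were not tested.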

How the results depend on the processing

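For the 9 genes, 826 values were computed over 5 comparisons and their alternatives. Of these 798 kept their call or lack of one, 25 lost the call and 3 gained it, and no called difference changed direction, although small differences that were not called changed sign in places. For the called genes of the related lists 472 of 488 kept the call and 16 lost it. The numbers of the 9 genes called in MY vs. MO (5) and WO vs. MO (6) were 5 or 6 under each alternative, not always with the same genes. With a mean of at least 1, *H2-Ab1*, *H2-Eb1*, *Ciita* and *Cd80* were removed and not tested. The 5 genes called there in each comparison thus lacked *H2-Ab1* and included *H2-Aa*. With log2(FPKM + 0.1) and with treat the interaction was called for 3 of the 9 genes each, in place of 5. The count of all genes called rose with log2(FPKM + 0.1) to 1483 in MY vs. MO, 1529 in WO vs. MO and 1548 in the interaction, which fell to 608 with treat. In WY vs. WO it was 73 in batch 1, 80 with batch as a term, 3 with treat and 7 to 64 with a mouse left out (7 without WY3), against 46. In WY vs. MY it was 2 with a mean of at least 1, 4 with all groups in 1 fit, 2 with an intensity trend and 1 to 5 with a mouse left out, against 1. The cause of these changes was not tested.

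Among the 9, calls were lost or gained for *H2-Aa*, and, in the interaction, lost for *H2-Ab1* and *Cd74*. *H2-Aa* in WO vs. MO was lost in 6 of the 10 fits with a mouse left out, with quantile normalization (0.79, FDR = 0.0544) and with treat. In MY vs. MO it was gained with a mean of at least 1 (FDR = 0.0434), with all groups in 1 fit (FDR = 0.0250) and without MO1 (1.11, FDR = 0.0178). The interaction of *H2-Ab1* was lost in 7 of the 16 fits with a mouse left out, with quantile normalization (0.77, FDR = 0.0597) and with treat.

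Mice with the same number correlated between -0.21 and 0.38 in their deviations. Each MY mouse correlated best with the MO mouse of its number. The same held for WY1 and WY3 in WY vs. WO, for WO2 alone in WO vs. MO and for no mouse in WY vs. MY. Whether the numbers stand for a pairing was not tested, and the main fits treat the mice as unpaired. With the replicate block 5 of the 9 genes were called in MY vs. MO and 5 in WO vs. MO, without *H2-Aa* (FDR = 0.102), and 4 in the interaction, without *H2-Ab1* (FDR = 0.0680). Low values limit *Ciita*, *Cd80* and the T cell genes, whose fragment counts are not in the table.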
